A study of Danio rerio with 10 samples.

Results

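The most abundant transcripts of the zebrafish embryo at 28 hours post fertilisation (hpf) were taken as the gene models with a mean of at least 500 CPM over the heterozygous libraries. CPM is the count of a model per 1000000 counts of its library. The rule gave 259 of the 36351 gene models of the count table, or 0.712%. RNA was profiled from whole embryos of a mutant line called cebra and from their heterozygous siblings, which the labels abbreviate to het, with 4 libraries per genotype at the same stage. By its title the series concerns how cilia act on the Reissner fiber, an extracellular thread known to run along the central canal of the spinal cord. The labels do not name the mutated gene, do not say whether a library held 1 embryo or a pool, and speak of 5 controls and 5 mutants where 4 libraries of each are in the table. The p-values therefore measure the spread between these libraries, which may be technical in part. The pair of samples for genome sequencing was not analysed here.

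A few highly expressed genes usually supply a large part of the messenger RNA of an animal. In embryos of this stage such transcripts are known to include those of ribosomal proteins, translation elongation factors, actins, tubulins, keratins, muscle contractile proteins and embryonic globins. Ribosomal protein messages are mostly short and those of giant muscle proteins very long, so a level per read and a level per molecule order such genes differently. None of the 36351 identifiers of the table could be paired with a gene symbol (0 matched), so no gene family, cell type or tissue marker was named or checked here, and the models are given by rank and length. In bulk samples such as these, fewer cells of a type and less RNA per cell cannot be told apart.

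Library totals ran from 50634030 to 71877787 counts. The lowest count of any member in any library was 11941, so counting error was small for every member. The library of cebra replicate 2 stood apart from the other 7. It is given separately, and results that rest on it are given with and without it.

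The heterozygous levels that chose the members are given as a description, without a test. The members had a median of 862 CPM over the heterozygous libraries and a maximum of 16198 CPM, while the median of all 25600 models tested was 7.25 CPM. Of the 259 members, 107 had at least 1000 CPM, 41 at least 2000 CPM and 10 at least 5000 CPM. The 3 members just inside the threshold had 509.2, 508.7 and 506.3 CPM, with lengths of 1803, 4517 and 9993 bases. The 3 models just outside it had 498.3, 496.2 and 491.6 CPM, with lengths of 2522, 4375 and 3618 bases. In 238 members all 4 heterozygous libraries reached 500 CPM, and in 21 at least 1 of them did not. The same rule applied to cebra replicates 1, 3 and 4 gave 250 models, of which 246 were members. These are 94.98% of the heterozygous list and 98.4% of the cebra list.

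Together the members held a large part of all counts. Their share was 37.0, 36.4, 36.7 and 35.8% in het replicates 1 to 4, a mean of 36.5% ± 0.525 (SD, n = 4). In cebra replicates 1, 3 and 4 it was 37.3, 36.5 and 36.0%, a mean of 36.6% ± 0.651 (SD, n = 3). The ranges of these groups overlapped. Cebra replicate 2 lay far above every other library at 47.3%. The 95% Wilson interval of each share reached at most 0.0133 percentage points to either side, and covers counting error only. The genotypes were also close on a scale that takes length into account. In TPM, the length-scaled counterpart of CPM, where each count is first divided by the length of its model, the members held 48.1% ± 0.551 (SD, n = 4) in het, 48.2% ± 0.740 (SD, n = 3) in cebra replicates 1, 3 and 4, and 57.2% in cebra replicate 2.

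**Figure D1:**
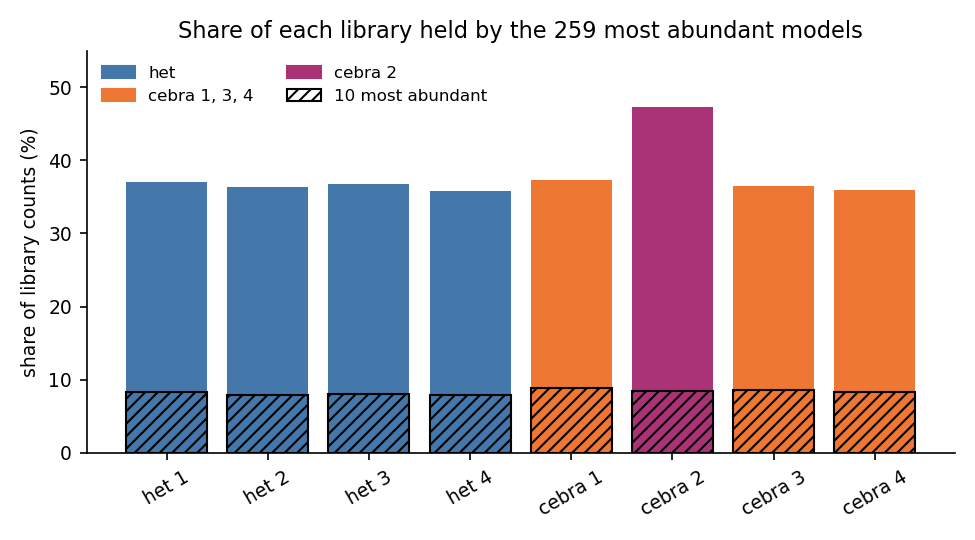
Share of all counts held by the 259 most abundant gene models (bars) and by the 10 at the top of the list (hatched), in percent, for each of the 8 libraries. The 4 het libraries lie between 35.8 and 37.0% and cebra replicates 1, 3 and 4 between 36.0 and 37.3%, while cebra replicate 2 stands at 47.3%.

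To compare the genotypes without members chosen on one of them, each library was ranked by its own values and the share of its own 259 top models was taken. This share was 36.5% ± 0.482 (SD, n = 4) in het and 39.6% ± 5.95 (SD, n = 4) in cebra. The difference of 3.10 percentage points was within the spread of the cebra libraries (two-sided exact permutation test over 4 against 4 libraries, p = 0.371, smallest possible p 0.0286). Without cebra replicate 2 the difference was 0.133 percentage points, and the exact permutation test over 3 against 4 libraries gave p = 0.771. The number of top models that made up 50% of a library was 698 to 743 in 7 libraries and 291 in cebra replicate 2. Of each library's own top 259 models, 246 to 256 were members in those 7 libraries and 217 in cebra replicate 2.

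The most abundant model, LL0000013464 of 2543 bases, took 1.62% of all heterozygous counts on its own. It had 16849, 16688, 15225 and 16028 CPM in het replicates 1 to 4. In cebra replicates 1, 3 and 4 it had 18515, 17169 and 17318 CPM, and in cebra replicate 2 it had 18589 CPM. In CPM all 4 cebra values lay above all 4 heterozygous values, but after TMM scaling, which corrects library totals for composition, the groups overlapped. It was first in rank in all 8 libraries. The next, LL0000009394 of 5871 bases, had 12232, 11811, 11646 and 13115 CPM in het. It had 12551, 10898 and 11693 CPM in cebra replicates 1, 3 and 4 and 14025 CPM in replicate 2, and the groups overlapped. LL0000001182 came after it, with a length of 12960 bases and 8196, 8506, 7460 and 8899 CPM in het. It had 9294, 8557 and 8647 CPM in cebra replicates 1, 3 and 4. In cebra replicate 2 it was far below all other libraries, at 2750 CPM.

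From rank 4 to rank 10 the levels lay close together. Of the 9 pairs of neighbours among the 10 top ranks, 7 overlapped in their heterozygous values, so their order is not firm. At rank 4, a model of 5554 bases had 7851, 6172, 7976 and 6693 CPM in het and 8284, 8128 and 6749 CPM in cebra replicates 1, 3 and 4. Its replicates 2 and 4 were the low ones in het, and replicate 4 was the low one among cebra replicates 1, 3 and 4. Cebra replicate 2 was lower still in CPM, at 5419 CPM. On the TMM scale its log2 deviation from the median of the other 7 libraries was -0.14. The model at rank 5, of 1551 bases, was far more even, with 7102, 6757, 7530 and 7098 CPM in het and 7172, 7007 and 7107 CPM in cebra. Rank 6 was held by a model of 1773 bases, with 7018, 5701, 7480 and 5855 CPM in het. It had 7124, 7380 and 5884 CPM in cebra replicates 1, 3 and 4 and 7813 CPM in cebra replicate 2. Again replicates 2 and 4 were the low ones in het, and replicate 4 among cebra replicates 1, 3 and 4. At rank 7, a model of 1673 bases had 6026, 6142, 5782 and 5946 CPM in het and 6482, 6228 and 6006 CPM in cebra, with 9769 CPM in cebra replicate 2. At rank 9, a model of 1683 bases had 6294, 5184, 5473 and 6405 CPM in het and 5861, 6162 and 7538 CPM in cebra. Rank 10 was held by a model of 3695 bases, with 5270, 5252, 5319 and 5046 CPM in het and 5059, 5090 and 5147 CPM in cebra. For each of the ranks 4, 5, 6, 7, 9 and 10 the values of both groups overlapped. The 10 models together held 8.05% ± 0.221 (SD, n = 4) of the counts in het, 8.59% ± 0.293 (SD, n = 3) in cebra replicates 1, 3 and 4, and 8.38% in cebra replicate 2. The higher total share of cebra replicate 2 was therefore carried by members below the 10 top ranks.

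The members were shorter than other expressed models. Their median length was 1899 bases, with quartiles of 1262 and 3795 and a range of 228 to 102967 bases, while the other tested models had a median of 3105 bases. Of the members, 46 (17.8%) were under 1 kb, compared with 9.10% of the other tested models. A further 88 (34.0%) were of 1 to 2 kb, compared with 20.3%. There were 75 members (29.0%) of 2 to 5 kb, 43 (16.6%) of 5 to 10 kb and 7 (2.70%) of 10 kb or more. Within the list, CPM and length were hardly related (Pearson r 0.050, Spearman rho -0.058 across 259 models, which share the same libraries and are not independent).

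Scaling by length changed which members ranked highest. The levels in TPM ran from 26.3 to 15149, with a median of 1269. The 5 highest were 15149 TPM for the model at rank 1, 10924 for rank 5, 9401 for rank 45 (461 bases), 8912 for rank 28 (691 bases) and 8740 for rank 6. By TPM, 199 of the 259 members (76.8%) were among the top 259 models. The 60 others were long, none under 2928 bases. The 60 models that took their place had a median length of 1093 bases. The first of them had 299 bases, 3530 TPM and 444 CPM.

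The shortest and the longest members show the size of this effect. The shortest, of 228 bases at rank 158, had 773 CPM and 8063 TPM and was at rank 9 by TPM. The next shortest were the models of 346 bases at rank 218 and of 461 bases at rank 45. At the other end, the model at rank 86, LL0000031336 of 102967 bases, had 26.3 TPM, and the one at rank 82, of 89379 bases, had 31.0 TPM. Their CPM values were nearly equal in each library. In het replicates 1 to 4 the model at rank 86 had 1103, 1053, 1111 and 1291 CPM and the model at rank 82 had 1096, 1150, 1141 and 1272 CPM. Reads of near-identical or overlapping models can be shared between them, and the treatment of such reads is not given in the sources used here. The longest model after these had 20611 bases and stood at rank 166.

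**Figure D2:**
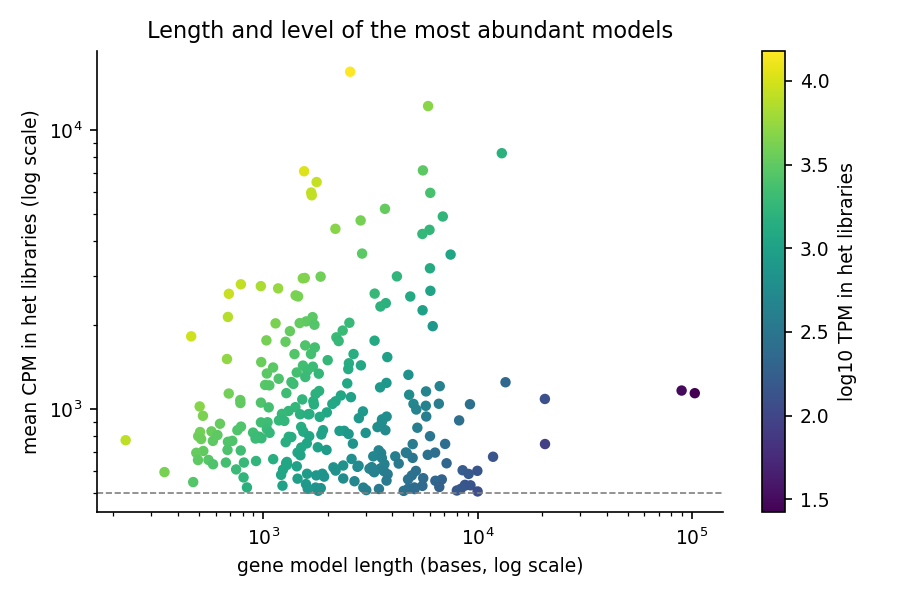
Gene model length in bases against mean CPM in the het libraries for the 259 members, both on log scales, with colour for log10 of the TPM in het and a dashed line at 500 CPM. CPM shows little relation to length, while the colour runs from the highest TPM among short and top-ranked models to the lowest, 26.3 and 31.0 TPM, in the longest models at 102967 and 89379 bases.

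Libraries of one genotype differed little in the members. The coefficient of variation (CV, the SD as a percentage of the mean) over the 4 het libraries had a median of 5.19% in CPM, with quartiles of 3.28 and 8.47%. Over cebra replicates 1, 3 and 4 the median was 4.98%. The other tested models had medians of 10.5 and 9.97%. The next 259 models by level, ranks 260 to 518, had 5.06% in het, so the small spread was not particular to the members. Counting alone gives members a median CV of 0.422%, and at most 0.550%. In 255 of the 259 members the observed CV was more than 3 times the counting value. The depth thus did not limit the precision of these levels, and the spread came from differences between libraries.

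The steadiest member was the model at rank 95, of 1711 bases, at 1064, 1077, 1065 and 1060 CPM in het, a CV of 0.671%. In cebra replicates 1, 3 and 4 it had 1066, 968 and 979 CPM, a wider spread. The models at rank 230 and rank 31 followed with CVs of 0.912 and 1.02%. The most variable member was the model at rank 195, of 669 bases. It had 740, 636, 813 and 382 CPM in het and 741, 866 and 503 CPM in cebra replicates 1, 3 and 4, a CV of 29.3% in het. Its low library was number 4 in both groups. The models at rank 26 (6018 bases) and rank 212 (8507 bases) had CVs of 22.4 and 22.1%. At rank 26, het replicate 4 was the lowest at 1852 CPM, and at rank 212 it was the highest at 785 CPM. In all, 122 members had a CV under 5%, 209 under 10% and 8 over 20%.

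The same members varied in both genotypes. Across the 259 members the CV in het and the CV in cebra replicates 1, 3 and 4 had a Pearson r of 0.749 and a Spearman rho of 0.473. Of the 26 most variable members of each group, 19 were shared. The deviations followed the replicate number. Deviations of the members from their group means, taken over 7 libraries, correlated between the genotypes at 0.19 for number 1, 0.77 for number 3 and 0.76 for number 4. For the next 259 ranks the values were 0.39, 0.71 and 0.61, and for all tested models 0.19, 0.24 and 0.33. Het replicate 4 deviated most, with an SD of 0.149 on the log2 scale over the members. The labels do not say what equal numbers share.

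Both libraries numbered 4 were the lowest of their group, among the 7 libraries, in 52 members (20.1%) and the highest in 48 (18.5%). Over all tested models the shares were 17.7 and 17.3%. Of the 26 members most variable in het, 20 were lowest in both. The 52 members that were lowest held 7.39% of the counts in het replicates 1 to 3 and 5.81% in het replicate 4. They were picked by these values, so the difference is a description.

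**Figure D3:**
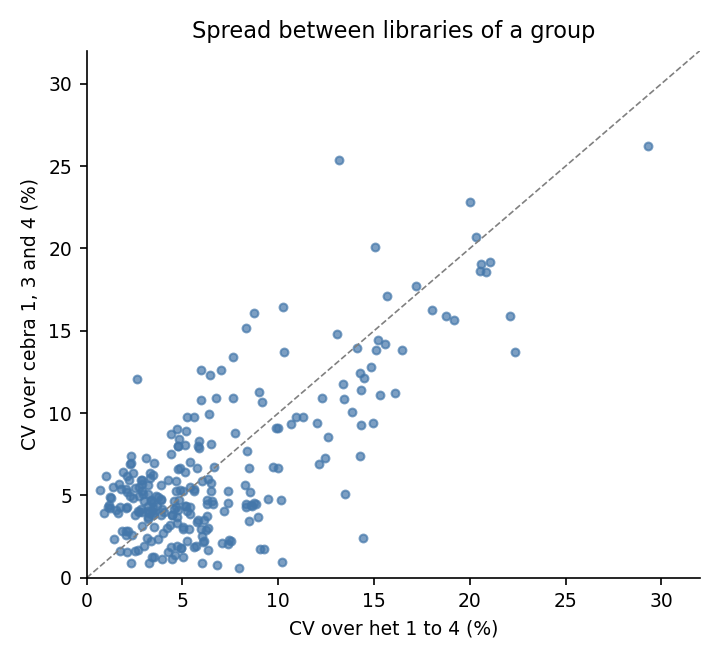
CV of CPM over het replicates 1 to 4 against CV over cebra replicates 1, 3 and 4, both in percent, with 1 point per member and a dashed line where both are equal. Most points lie under 10% on both axes, and the models with a CV over 20% in het lie high on both axes (Pearson r 0.749).

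Between genotypes the members differed only by small amounts. Cebra replicates 1, 3 and 4 were set against the 4 het libraries over all 25600 models tested with edgeR. No member passed at an FDR of 0.05, the smallest adjusted p being 0.0859. The background of this fit was 0.043% of all tested models called higher and 0.0547% called lower. At an unadjusted p under 0.05 there were 57 members (22.0%), where 11.1% of all tested models were. Of these members 6 were higher and 51 lower in cebra, and over all tested models 4.78% were higher and 6.34% lower at this level. The fitted log2 fold changes of the members had a median of -0.066, with a range of -0.35 to 0.43, beside a median of 0.013 over all models tested. The fitted value was negative in 191 members and positive in 68. None was past 1.5-fold.

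The heterozygous values also chose the members, so no test of the list was made. With the list chosen on cebra replicates 1, 3 and 4 the median was -0.057. The shift was not particular to the members, since the next 259 ranks had a median log2 fold change of -0.088, with 195 of 259 fitted lower. Its size moved with the scaling, but the median over all tested models moved along with it, so the distance between these medians hardly changed. With library size alone it was -0.038, where all tested models had a median of 0.041, and 170 members were then fitted lower. With all 8 libraries the sign turned. The median was then 0.23, and edgeR called 0 of the 259 members, while 0.0197% of all models tested were called in either direction. At an unadjusted p under 0.05 there were 3 members, or 1.16%, where 3.8% of all tested models were. DESeq2 over the 8 libraries also called 0 members, and 0.225% of all models tested.

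The labels do not pair the libraries, and equal numbers were paired because of correlations in these same counts. The direction was the same in each of the pairs numbered 1, 3 and 4. The cebra value was below the het value of the same number in 181, 198 and 175 members, which are 69.9, 76.4 and 67.6%. Over all tested models these shares were 48.8, 48.5 and 49.4%. The median log2 differences of the members were -0.048, -0.095 and -0.052. In 122 members (47.1%) cebra was lower in all 3 pairs, compared with 19.0% of all tested models, and in 20 (7.72%) it was higher in all 3, compared with 20.04%. The farthest single value was that of the model at rank 211, of 1236 bases, at -0.94 in pair 4. It had 737 CPM in het replicate 4 and 391 CPM in cebra replicate 4, while its values in the other 5 of the 7 libraries ran from 536 to 603 CPM.

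**Figure D4:**
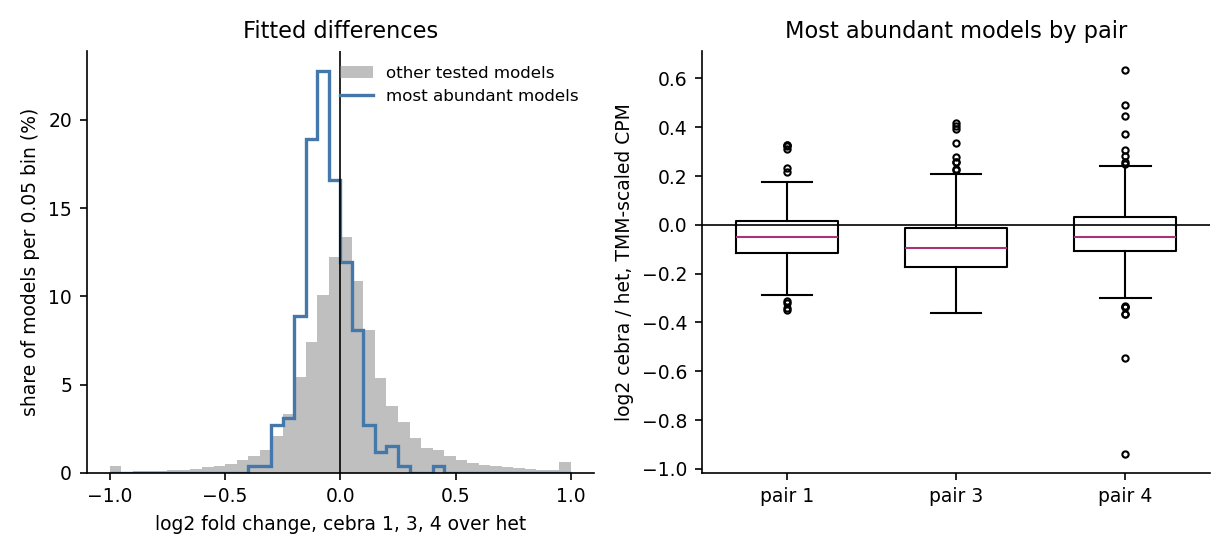
Left, distribution of the fitted log2 fold changes of cebra replicates 1, 3 and 4 over het in bins of 0.05, as a percentage of the members (line) and of the other tested models (grey), with values beyond -1 or 1 placed in the end bins. Right, boxplots of the log2 ratio of cebra over het within the pairs 1, 3 and 4 for the 259 members, with medians of -0.048, -0.095 and -0.052, all below 0.

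Without the pairing, the groups were read model by model. In 2 members (0.772%) every value of cebra replicates 1, 3 and 4 lay above every het value on the TMM scale, where 5.31% of all tested models did. In 51 members (19.7%) every cebra value lay below, where 6.17% of all tested models did. In the next 259 ranks 11 lay above and 77 below. These counts moved with the scaling. On plain library totals 5 members (1.93%) lay above, where 7.29% of all tested models did, and 38 (14.7%) lay below, where 4.42% did. With cebra replicate 2 included, on the TMM scale, 0 members lay above, where 2.18% of all tested models did, and 7 (2.70%) lay below, where 2.3% did.

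With the replicate number, a pairing chosen on these data, as a block over the pairs 1, 3 and 4, edgeR called 25 members at an FDR of 0.05. Of these, 2 were higher (0.772%), where the background was 0.782% of 25447 models, and 23 were lower (8.88%), where the background was 2.04%. With library size alone in place of TMM, the same fit called 3 higher (1.16%) and 8 lower (3.09%), where the background was 0.861% in each direction. On the TMM scale the next 259 ranks had 3 higher and 42 lower (16.2%), so the share of lower calls was not particular to the members either. Models with a small SE can pass at smaller differences. In the blocked fit on the TMM scale the median SE was 0.045 for members and 0.094 over all models tested. Whether this bears on the share of lower calls was not tested. The 23 lower members had log2 fold changes with a median of -0.23 and sizes from 0.18 to 0.38. In 16 of them the 7 libraries did not overlap between the genotypes. Over all tested models 6.17% had every cebra value below every het value. The calls were made on largely the same libraries, so the 16 are a description. Cebra replicate 2 lay on the same side of the het mean in 7 of the 23.

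The number of calls depended on the pairs and the tool. Without pair 1 the blocked edgeR fit called 12 members, 4 higher and 8 lower (4.63% together), where it called 2.52% of all models tested. Without pair 3 it called 3 members (1.16%), where the background was 0.375%. Without pair 4 it called 54 members, 8 higher and 46 lower (20.8% together), where the background was 5.23%. Without a block, DESeq2 on the 7 libraries called 12 members, all lower (4.63%), where it called 1.49% of all tested models in either direction. All 12 were among the 23 of the blocked edgeR fit, which used largely the same counts.

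The 2 members with the smallest p in each direction in the fit of 7 libraries did not pass it. The model LL0000023898 at rank 71, of 1570 bases, had 1267, 1374, 1225 and 1342 CPM in het. In cebra replicates 1, 3 and 4 it had 1113, 1027 and 1079 CPM, each below all 4 het values, while cebra replicate 2 was far above them at 2150 CPM. Its log2 fold change was -0.31 (SE 0.06, edgeR adjusted p 0.0859), and -0.28 in the 3 pairs with the block (edgeR adjusted p 0.0087). This call was lost without pair 3, at a log2 fold change of -0.29 (edgeR adjusted p 0.0595). The model LL0000039827 at rank 130, of 1502 bases, had 855, 884, 856 and 854 CPM in het. Cebra replicates 1, 3 and 4 had 700, 710 and 777 CPM, all below het, and cebra replicate 2 had 941 CPM, above it. Its log2 fold change was -0.27 (SE 0.06, edgeR adjusted p 0.116), and -0.26 in the 3 pairs (edgeR adjusted p 0.0164). The call was lost without pair 1, at -0.23 (edgeR adjusted p 0.0559), and without pair 3, at -0.25 (edgeR adjusted p 0.116).

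On the higher side, the model LL0000040072 at rank 8, of 6010 bases, had 6560, 6063, 6887 and 4323 CPM in het. It had 8429, 9362 and 6825 CPM in cebra replicates 1, 3 and 4 and 7387 CPM in cebra replicate 2. Cebra replicate 4 fell within the het range, and het replicate 4 was the lowest of all. Within each pair cebra was the higher one, by 0.33, 0.40 and 0.63 on the log2 scale in pairs 1, 3 and 4. The log2 fold change was 0.43 (SE 0.15, edgeR adjusted p 0.320) without the block and 0.46 (SE 0.06, edgeR adjusted p 0.00304) with it, a 1.37-fold difference. It was the larger of the 2 higher calls, the other being a model of 2099 bases at rank 101 with a log2 fold change of 0.21. LL0000031336, the longest member, had 1414, 1526 and 1232 CPM in cebra replicates 1, 3 and 4. Its log2 fold change was 0.26 (SE 0.09, edgeR adjusted p 0.309), and 0.22 with the block (edgeR adjusted p 0.165). The blocked value depended on the pairs, with 0.11 without pair 3 (edgeR adjusted p 0.674) and 0.37 without pair 4, where it was called (edgeR adjusted p 0.000137). In cebra replicate 2 it had 314 CPM.

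The sign of the fitted difference went with length at the long end. All 7 members of 10 kb or more were fitted higher in cebra replicates 1, 3 and 4, with a median log2 fold change of 0.21, while the other tested models of that length had 0.063. Members of 2 to 5 kb had a median of -0.10, with 60 of 75 fitted lower. The medians were -0.068 under 1 kb, -0.067 for 1 to 2 kb and -0.025 for 5 to 10 kb. Over all 259 members the fold change was only weakly related to log2 length (Pearson r 0.213, Spearman rho 0.083). The other tested models had 0.045 and 0.083. Pairs 1 and 3 gave the 7 long members medians of 0.22 and 0.23, and pair 4 gave 0.032. None of the 7 was called by edgeR with the block over the 3 pairs, the smallest adjusted p being 0.0554. Without pair 4 that fit called 6 of the 7, where it called 5.23% of all tested models. Without pair 1 or pair 3 it called 0, where the backgrounds were 2.52 and 0.375%. The models at ranks 82 and 86 had nearly equal CPM in each library, so the 7 may not be independent. DESeq2 with the block gave a smallest adjusted p of 0.00784, so it called at least 1 of the 7. It called 761 of all 25447 models tested. With all 8 libraries 0 of the 7 were fitted higher.

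Cebra replicate 2 differed from the other libraries in most members. On the TMM scale its log2 deviation from the median of the other 7 had a median of 0.86 over the members, with 214 of 259 above 0. It was more than 2-fold above in 113 members (43.6%), where 9.45% of the other tested models were. It was more than 2-fold below in 10 members (3.86%), where 14.1% of the others were. No member was past 2-fold in any of the other 7 libraries. The size depends on the scaling. On plain library totals the median was 0.44, with 182 members above 0, 42 more than 2-fold above and 16 more than 2-fold below. All tested models then had a median of -0.40, where the other tested models had 0.018 on the TMM scale. The medians of members and background thus moved down together.

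The deviation followed gene model length. Across the members it correlated with log2 length at a Pearson r of -0.756 and a Spearman rho of -0.709 (259 models, 1 library), compared with -0.279 and -0.429 over the other tested models. Those models scatter more, with an SD of 0.29 in het replicate 1 where members had 0.075. Models of similar level were not compared here, so the stronger correlation may not be particular to the members. All 46 members under 1 kb lay above the other libraries, with a median of 1.43. The medians were 1.03 for 1 to 2 kb, 0.50 for 2 to 5 kb and -0.19 for 5 to 10 kb. Of the 88 members of 1 to 2 kb, 87 lay above 0, while the model at rank 83, of 1821 bases, lay at -1.02. All 7 members of 10 kb or more lay below, with a median of -1.50. The other tested models had a flatter course, from 0.63 under 1 kb to -0.84 at 10 kb or more. The TMM factor of this library was 0.775, beside 1.02 to 1.06 in the others. Such a factor scales all models of a library alike, so it sets the level of the deviations and not their relation to length. The cause of the pattern was not tested.

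The extremes were as follows. The model at rank 112, of 1222 bases, had 2397 CPM in cebra replicate 2 where the median of the others was 936 CPM, and was 3.42-fold above on the TMM scale. A model of 523 bases at rank 116 was 3.18-fold above, and a model of 1070 bases at rank 143 was 2.99-fold above. On the low side, the model of 20584 bases at rank 92 had 247 CPM where the median was 1159 CPM, and was 3.55-fold below. LL0000031336 and the model of 20611 bases at rank 166 were 2.91-fold and 2.89-fold below. In this library 40 members had under 500 CPM, with a median length of 6171 bases.

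**Figure D5:**
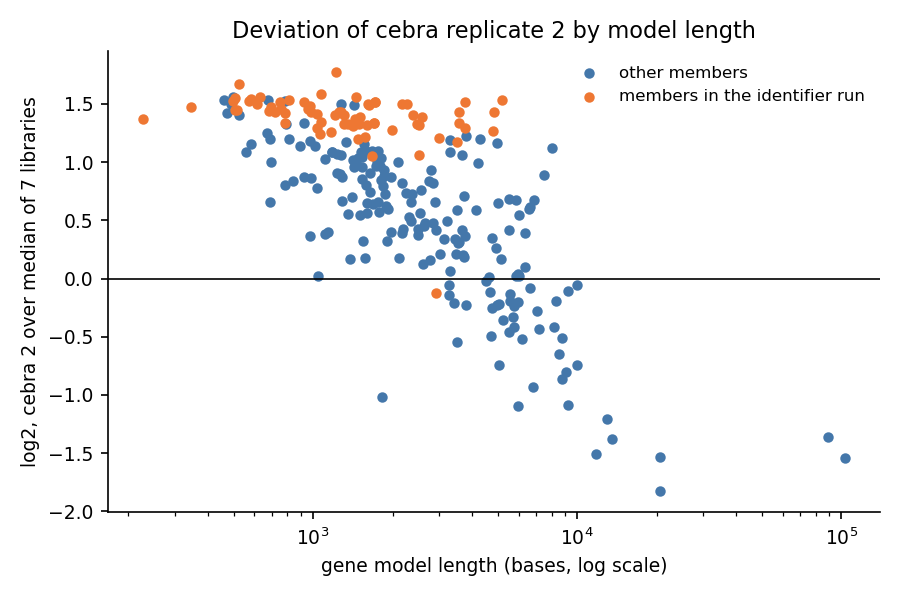
Log2 deviation of cebra replicate 2 from the median of the other 7 libraries on the TMM scale, for each of the 259 members against gene model length in bases on a log scale. All 46 members under 1 kb lie above 0 and the 7 of 10 kb or more lie below, while all but 1 of the 69 members in a run of neighbouring identifiers (orange) lie between 1.05 and 1.78. Among the 88 of 1 to 2 kb, 87 lie above 0.

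Many members had neighbouring identifiers. In 89 members the identifier number directly followed that of another member. The densest run of identifiers, numbers 23800 to 24099, was chosen after its values were seen and gets no test. It holds 294 models, of which 69 were members, 26.6% of the list. What the numbering follows is not given in the sources used here. These 69 members had a median length of 1315 bases and a narrow spread, with a median CV of 3.90% in het and at most 8.29%. They held 7.09 to 7.63% of the counts in het and 6.70 to 7.30% in cebra replicates 1, 3 and 4. In cebra replicate 2 they held 14.3%.

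The run had higher deviations and a weaker length course than the other members in cebra replicate 2. On the TMM scale, 68 of its 69 members were more than 2-fold above the other libraries, at log2 deviations of 1.05 to 1.78. The exception was the model at rank 248, of 2928 bases, at -0.12. This count depends on the scaling. On plain library totals the median of the run lay just under 2-fold, and only 42 of all members were more than 2-fold above. The other values given here are on the TMM scale. The median was 1.47 for the 23 members of the run under 1 kb and 1.33 for the 16 of 2 to 5 kb. Members outside the run went from 1.20 under 1 kb to 0.42 for 2 to 5 kb. The Pearson correlation with log2 length was -0.324 in the run and -0.775 in the other 190 members. Spearman rho was -0.424 and -0.727. The run held 1 member of 5 to 10 kb and 0 longer ones, the others 42 and 7, so their length ranges differ. Among the 213 other tested models of the run, 25 were more than 2-fold above, with a median deviation of 0.26. Over all tested models that are not members, 9.45% were more than 2-fold above, with a median of 0.018.

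In cebra replicates 1, 3 and 4 all 69 members of the run had a negative fitted log2 fold change, with a median of -0.095. The sign was the same in all 69 with library size alone and with upper-quartile scaling, and in 68 with the replicate block. With the block it was the same in 67 without pair 1, and in 62 with library size alone, at a median of -0.055. In the fit of 7 libraries 9 of the 69 (13.0%) had an unadjusted p under 0.05, all lower. Over all tested models 6.34% were lower at this level, and 11.1% were past it in either direction. With the block edgeR called 2 (2.90%), both lower, near the 2.04% of all tested models called lower. Of the 190 members outside the run 122 were fitted lower, with a median of -0.034. The run's other tested models were fitted lower in 121 of 213. With all 8 libraries 1 of the 69 was fitted lower, so the sign in the run also turned with cebra replicate 2.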

How the data were processed

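The authors deposited raw read counts per gene model, whole numbers with 1 column per library and a column with model length in bases. Counting started from alignment files of the Subread package, per the file headers. Of the tools, cutadapt and DESeq2 appear without roles in the submitters' processing notes, as does the build GRCz11. Neither the annotation nor the handling of strand and of multi-mapping reads is given in the sources used here, and near-identical or overlapping models may share reads. Groups and replicate numbers came from sample titles.

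Counts were fitted in R 4.3.3 with edgeR 4.0.16 (filterByExpr, TMM, quasi-likelihood F test, two-sided, Benjamini-Hochberg FDR of 0.05 over all models tested). DESeq2 1.42.0 and limma-voom (limma 3.58.1) were alternatives. The SE is the log2 fold change divided by the square root of F. The fitting code was run on simulated counts with changes of 1.5-fold or more and no effect of replicate number. Smaller differences, such as those of the members, were not simulated. CPM used column totals, and TPM the deposited lengths. Libraries of a group differed beyond sampling noise (chi-square over degrees of freedom of 9.99 or more for every pair).

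Equal replicate numbers were taken as pairs, since deviations from group means correlated at 0.20, 0.14, 0.15 and 0.27 for numbers 1 to 4. The labels do not give this pairing, so it was chosen on the same counts that the blocked fits then used. This block changed calls and its values are printed with them.

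The members, lists and tests were chosen with earlier results of these data known. Named models were the 10 highest, those beside the threshold, the extremes of length, TPM, CV and cebra replicate 2, and the 2 of smallest p in each direction. Lists needing gene symbols could not be used.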

Additional observations from a re-analysis of the deposited data

Results flagged for a closer look

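A library far from the rest of its group of 4 was looked for in 32 sets of values, by the gap to its nearest neighbour as a share of the group's range (Dixon's 95% limit). The search marked 8. Chance marks about 1 in 20 independent sets, but this rate is no yardstick here. Some sets hold models named for a small p in the fit without cebra replicate 2, and that library was already known to stand apart. Cebra replicate 2 gave 7 of the 8, and these describe 1 library and are not independent.

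The members held 47.3% of the counts in cebra replicate 2, beside 36.0 to 37.3% in the other cebra libraries. Its own 259 top models held 48.5%, beside 36.0 to 37.3%. By length-scaled level the members held 57.2%, beside 47.5 to 49.0%. The model at rank 3, LL0000001182, had 2750 CPM there, beside 8557 to 9294 CPM. The model at rank 7 had 9769 CPM, beside 6006 to 6482 CPM. The model at rank 10 had 4394 CPM, beside 5059 to 5147 CPM. That direction holds for CPM only. On the TMM scale this model lay above the median of the other 7 libraries, at a log2 deviation of 0.20. LL0000023898 had 2150 CPM, beside 1027 to 1113 CPM.

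The remaining mark was het replicate 2 for LL0000039827, at 884 CPM beside 854 to 856 CPM in the other het libraries. That gap is small, and the other 3 values lie very close together.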

How the results depend on the processing

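The count of members called in cebra replicates 1, 3 and 4 over het was 0 in edgeR with every scaling, filter and left-out library run without a block, and in limma-voom. Those fits called only 10 to 64 of all models tested. The count of members was 12 with DESeq2, 25 with the replicate block over pairs 1, 3 and 4, and 0 with the block over all 4 pairs. Of all models tested, these called 382, 718 and 0 in that order, so the last fit called no model at all. The blocked fits added after seeing the data gave 51 (19.7%) with DESeq2, 11 (4.25%) with library size only and 17 (6.56%) with upper-quartile scaling. They gave 25 (9.65%) with RLE, and also with TMM on models that are not members. Of all 25447 models tested, these fits called 761, 438, 564, 773 and 758 in that order. The blocked edgeR fits gave 12, 3 and 54 members without pair 1, 3 or 4. The median log2 fold change of the members, -0.066, was -0.055 with upper-quartile scaling and -0.038 with library size only. The medians over all tested models moved alike, at 0.013, 0.025 and 0.041 in that order. For members chosen at a threshold of 250 CPM the median was -0.076, and at 1000 CPM it was -0.052. Leaving out single libraries gave -0.091 to -0.050. With cebra replicate 2 it turned to 0.17 with the replicate block, 0.23 without, and 0.22 with DESeq2, a fit also added after seeing the data. In the blocked fits of pairs 1, 3 and 4 it was -0.030 with library size only, -0.050 with upper-quartile scaling and -0.053 without pair 3. All tested models had medians of 0.043, 0.023 and 0.0019 in these fits.

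The signs of LL0000031336 and LL0000023898 also turned with cebra replicate 2. The first had -0.16 with the block over 4 pairs, -0.021 over 8 libraries and -0.027 with DESeq2. The other had 0.040, 0.20 and 0.19. The members' share of het counts was 46.2% at 250 CPM, 25.8% at 1000 CPM and 48.1% by TPM, and 36.3 to 36.8% with a library left out. The difference of own top shares ran from 0.133 to 4.29 percentage points with a library left out, with exact permutation p from 0.0857 to 0.771. Exchanging signs within the 4 pairs gave an exact p of 0.25 (smallest possible 0.125). The median CV stayed at 4.35 to 5.83% with a het library left out. The cause of each change was not tested. The counting error of the members was small beside the spread between libraries.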
